A study of Mus musculus with 16 samples.

Results

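Cholesterol synthesis was followed in the hippocampus, a brain region of learning and memory, through the transcripts of 8 enzymes of the pathway: Hmgcs1, Idi1, Fdps, Fdft1, Sqle, Lss, Cyp51 and Dhcr7. The enzymes were chosen by name, and their probes were found by gene symbol or Entrez gene number on the Illumina MouseRef-8 v2 expression beadchip. A probe was found for 7 of the 8, among 17567 named genes with a probe, and the 7 were covered by 8 probes. Fdft1, squalene synthase, was not analysed here. All 7 passed the filter on dim probes (detection p-value under 0.05 on at least 4 of 16 arrays), as did 10704 genes in all.

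The 16 samples were hippocampal total RNA of mice at postnatal day 1 (P1) or day 30 (P30), with 4 wild-type (WT) and 4 Mef2c heterozygous (Mef2c-het) samples at each age. Mef2c-het mice, titled KO in the sample names, carried 1 conventional Mef2c allele lacking exon 2 in every cell, on the C57BL/6J strain, and WT mice were littermates with no agent given to either. MEF2C is a transcription factor of neurons and muscle. P1 and P30 samples came from separate mice, the labels do not say whether tissue of several mice was pooled, and p-values therefore measure only the spread between these samples.

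Cholesterol does not cross the blood-brain barrier to any useful extent, so the brain makes its own. Acetyl-CoA is built up to mevalonate and then to isoprenoid units, which are joined into squalene, closed into the ring of lanosterol and trimmed to cholesterol. Growing and dividing cells use it for new membrane, and oligodendrocytes later use large amounts for myelin. When sterols in the endoplasmic reticulum run low, the transcription factor SREBP2 is released to the nucleus and raises most genes of the pathway together, usually beside NF-Y, which binds CCAAT boxes, and SP1, which binds GC boxes.

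The promoters of the enzymes are shown because these shared elements are the textbook basis on which the pathway is regulated as 1 unit. RefSeq (GRCm38.p6) gave the 250 bases before the transcription start for 5 of the 8 genes, and no window is printed for Fdps, Sqle and Fdft1. The windows are chr13:119690101-119690350 (plus strand) for Hmgcs1, chr13:8885356-8885605 (plus) for Idi1, chr10:76531355-76531604 (plus) for Lss, chr5:4104698-4104947 (minus) for Cyp51 and chr7:143829964-143830213 (plus) for Dhcr7. Each is written 5′ to 3′ on the strand of its gene, and capitals mark matches, on either strand, to a sterol regulatory element core (TCACNCCAC), a CCAAT box (CCAAT, read ATTGG on the other strand) or a GC box (GGGCGG, read CCGCCC on the other strand).
Hmgcs1: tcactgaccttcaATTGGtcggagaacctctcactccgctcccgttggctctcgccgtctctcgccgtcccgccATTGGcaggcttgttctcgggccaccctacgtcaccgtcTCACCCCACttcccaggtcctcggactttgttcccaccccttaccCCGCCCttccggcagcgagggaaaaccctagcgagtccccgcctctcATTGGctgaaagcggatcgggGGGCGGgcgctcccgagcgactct
Idi1: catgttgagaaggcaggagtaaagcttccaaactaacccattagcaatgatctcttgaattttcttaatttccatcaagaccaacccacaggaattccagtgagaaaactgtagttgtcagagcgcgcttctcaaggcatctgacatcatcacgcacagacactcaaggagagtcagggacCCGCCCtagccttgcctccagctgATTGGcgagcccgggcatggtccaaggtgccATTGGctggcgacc
Lss: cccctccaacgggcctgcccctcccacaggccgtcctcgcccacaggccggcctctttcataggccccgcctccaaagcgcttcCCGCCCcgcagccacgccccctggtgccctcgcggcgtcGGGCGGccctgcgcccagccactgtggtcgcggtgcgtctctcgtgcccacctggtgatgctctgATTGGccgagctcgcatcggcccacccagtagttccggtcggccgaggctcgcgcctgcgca
Cyp51: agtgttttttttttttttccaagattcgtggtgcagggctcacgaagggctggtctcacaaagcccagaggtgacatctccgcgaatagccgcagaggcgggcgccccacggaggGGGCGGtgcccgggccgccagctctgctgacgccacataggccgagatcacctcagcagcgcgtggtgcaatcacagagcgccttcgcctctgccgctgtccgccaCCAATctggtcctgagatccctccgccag
Dhcr7: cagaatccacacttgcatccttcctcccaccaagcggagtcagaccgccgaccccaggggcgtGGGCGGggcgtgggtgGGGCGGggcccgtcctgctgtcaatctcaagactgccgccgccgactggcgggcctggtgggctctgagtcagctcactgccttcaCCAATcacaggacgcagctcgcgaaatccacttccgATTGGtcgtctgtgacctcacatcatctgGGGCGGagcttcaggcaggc
Hmgcs1 held the sterol regulatory element core, TCACCCCAC, at positions -137 to -129 from the start, with 3 CCAAT boxes and 2 GC boxes. The other 4 windows had no match to these letters for the sterol element, which 1.05% of 32851 RefSeq promoter windows of the same length held. Every one of the 5 windows printed held a CCAAT box and a GC box, found in 33.8% and 32.7% of all windows. The bases G and C made up 51.2% (Idi1) to 73.6% (Lss) of these windows, against 53.2% over all windows. The shares were not matched for this. Dhcr7 has 3 annotated starts, and the one printed was taken for its 2 CCAAT boxes, so its CCAAT match was fixed by that choice. It also held 3 GC boxes, while the windows of the other starts held no CCAAT box and at most 1 GC box. A match describes the letters of the window, and no binding was measured.

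**Figure D1:**
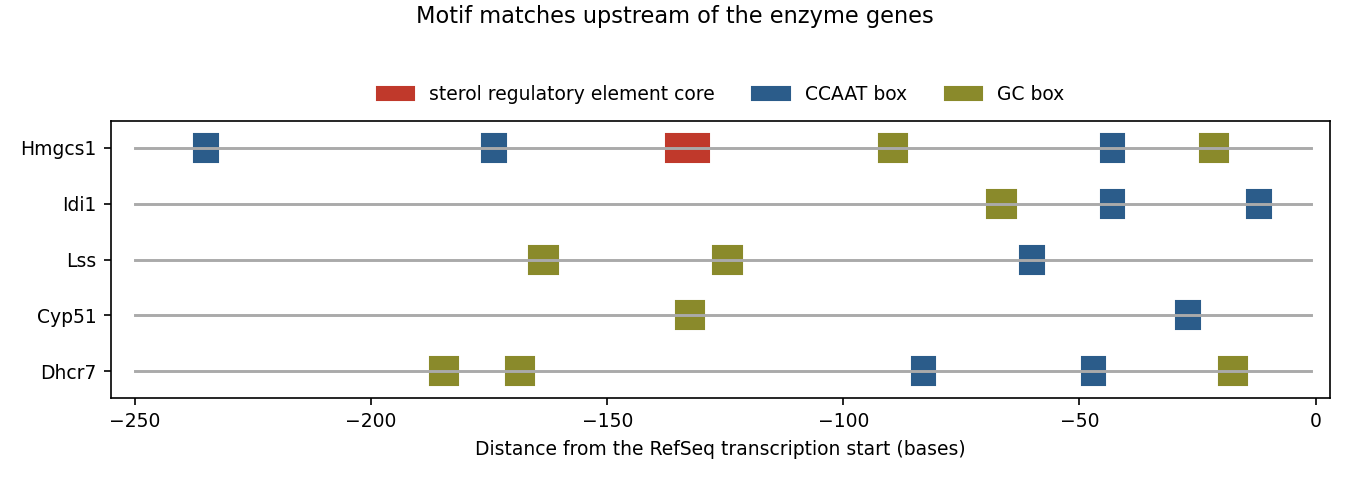
Positions of the motif matches in the 250 bases upstream of 5 enzyme genes, with distance from the RefSeq transcription start in bases on the x axis and 1 line per gene. The sterol element core appears once, in Hmgcs1, and each window shown has at least 1 CCAAT box and 1 GC box. The Dhcr7 window was chosen among its annotated starts for its CCAAT boxes.

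Before the enzymes, the arrays were compared. Clustering was set to give 2 clusters within each age, and the smaller ones held 5 arrays in all, apart from the other 11. These were WT replicate 8 and Mef2c-het replicate 8 at P1, and WT replicates 6 and 7 and Mef2c-het replicate 7 at P30. Their background, taken as the 5th percentile of signal, was 140 to 161.4 intensity units, against 105.8 to 130.8 on the other 11. Sex, read from Xist and Y-linked probes, was male on all 8 arrays at P30, while at P1 5 arrays were female (3 WT, 2 Mef2c-het) and 3 male. The targeted gene, Mef2c, read -0.29 and -0.25 in Mef2c-het against WT at P30, as log2 differences on its 2 tested probes, and 0.07 and -0.01 at P1, and none of these passed the test. Mef2c-het replicate 7 at P30 read 8.95 and 9.92 on these probes, against WT ranges of 8.59 to 8.96 and 9.61 to 9.80. Mef2c-het replicate 8 at P1 read 8.79 and 9.73, against WT ranges of 8.31 to 8.47 and 9.39 to 9.61. No other Mef2c-het sample at P1 lay above the WT range on both probes. Both of these samples were among the 5 arrays of higher background. Whether the probes lie in the deleted exon was not tested, so they may not check the genotype.

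The first question was how the enzymes changed as the hippocampus matured. Of the 7 enzymes measured, 5 were lower at P30 than at P1 in WT mice, Fdps, Sqle, Lss, Hmgcs1 and Cyp51, and none was higher (limma, adjusted p under 0.05). On the probe counted for each gene, Fdps was at 39% of its P1 signal, Sqle at 46.9% and Cyp51 at 76.2%, while the other Sqle probe was at 38.1%. Idi1 and Dhcr7 did not pass. The same 5 enzymes passed in Mef2c-het mice. All probes together gave 31.7% called lower at P30 in WT and 31.4% in Mef2c-het, so falling was common on the array, and the median log2 change of the 7 enzymes was -0.55 in WT and -0.74 in Mef2c-het against -0.03 and -0.02 over all 14777 probes tested. In the tissue as a whole, fewer cells of a type and less RNA per cell cannot be told apart.

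Hmgcs1 (probe ILMN_2654952) encodes HMG-CoA synthase, which makes the substrate of the rate-limiting HMG-CoA reductase. Its signal, here and below as quantile-normalized log2 intensity, was 14.58, 14.64, 14.61 and 14.62 on the 4 WT arrays at P1 and 14.21, 13.82, 13.96 and 14.27 at P30. In Mef2c-het samples it was 14.70, 14.72, 14.58 and 14.73 at P1 and 13.92, 14.02, 13.87 and 13.97 at P30. Every P30 array lay below every P1 array, and the WT values spread more at P30 (SD 0.209, n = 4) than at P1 (SD 0.026, n = 4). The log2 change was -0.55 (SE 0.082; adjusted p = 2.31e-05, limma) in WT and -0.74 (adjusted p = 8.1e-07) in Mef2c-het.

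Idi1 (ILMN_2590923) encodes isopentenyl diphosphate isomerase, which interconverts the isoprenoid building blocks. It was dim. WT values were 7.51, 7.53, 7.85 and 7.15 at P1 and 7.50, 7.40, 7.18 and 7.23 at P30, and Mef2c-het values were 7.72, 7.84, 7.65 and 7.20 at P1 and 7.47, 7.67, 7.61 and 7.18 at P30. The groups overlapped, with log2 changes of -0.18 (95% confidence interval -0.50 to 0.15; adjusted p = 0.338, limma) in WT and -0.12 (-0.45 to 0.20; adjusted p = 0.526) in Mef2c-het. Idi1 was detected on 11 of 16 arrays, and the 5 on which it was not detected were the 5 of higher background named above. With sex as a covariate the sign of these changes turned, to 0.05 and 0.03, and after background correction they were -0.52 and -0.31, none of them called. Sex and background overlapped at P1, where both arrays of higher background, WT and Mef2c-het replicate 8, were male.

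Fdps (ILMN_1225730) encodes farnesyl diphosphate synthase, which joins the isoprenoid units into the farnesyl chain from which sterols, ubiquinone and protein prenyl groups are made. WT values were 13.23, 13.23, 13.28 and 13.21 at P1 and 11.90, 11.83, 11.72 and 12.08 at P30. Mef2c-het values were 12.94, 13.32, 13.13 and 13.40 at P1 and 11.76, 11.83, 11.59 and 11.74 at P30. The ages were separated by a gap of 1.13 in WT and 1.11 in Mef2c-het, wider than the range within any group. Fdps was 2.56-fold lower at P30 in WT (log2 change -1.36, SE 0.095; adjusted p = 2.8e-09, limma) and 2.77-fold lower in Mef2c-het (-1.47; adjusted p = 1.1e-09). Only 2.51% of all tested probes fell further in WT, and 1.89% in Mef2c-het.

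Sqle encodes squalene epoxidase, the first oxygen-requiring step of the pathway and its second control point. On the brighter probe (ILMN_2737163), the one counted, WT values were 12.45, 12.48, 12.76 and 12.77 at P1 and 11.44, 11.44, 11.55 and 11.65 at P30. Mef2c-het values on that probe were 12.56, 12.86, 12.64 and 12.74 at P1 and 11.33, 11.55, 11.21 and 11.51 at P30. No P30 array reached the P1 range. The log2 change was -1.09 (SE 0.097; adjusted p = 5.42e-08, limma) in WT and -1.30 (adjusted p = 6.68e-09) in Mef2c-het. The other probe (ILMN_2600348) read 10.42 to 10.71 over all P1 arrays and 8.93 to 9.41 over all P30 arrays. It changed in the same direction, by -1.39 in WT (adjusted p = 1.49e-09, limma) and -1.47 in Mef2c-het (adjusted p = 7.73e-10).

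Lss (ILMN_2614161) encodes lanosterol synthase, which closes the sterol ring. WT values were 8.84, 8.94, 9.12 and 8.87 at P1 and 8.15, 8.01, 8.23 and 8.36 at P30, and Mef2c-het values were 8.74, 9.04, 8.78 and 8.98 at P1 and 8.11, 8.18, 8.12 and 8.19 at P30. The ages did not overlap in either genotype. The log2 change was -0.75 (SE 0.086; adjusted p = 1.14e-06, limma) in WT and -0.74 (adjusted p = 1.52e-06) in Mef2c-het. No deposited intensity was below 92.8, a floor that shrinks the ratios of dim probes, and with background correction the changes of Lss were -1.13 and -1.12.

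Cyp51 (ILMN_2688075) encodes lanosterol demethylase, the first enzyme after the ring is closed. WT values were 10.34, 10.53, 10.57 and 10.41 at P1 and 10.13, 10.09, 9.95 and 10.12 at P30. Mef2c-het values were 10.17, 10.52, 10.66 and 10.48 at P1 and 10.00, 10.01, 9.64 and 9.88 at P30. Its fall was the smallest of the 5 that passed, with a gap between the ages of 0.21 in WT and 0.15 in Mef2c-het. The log2 change was -0.39 (SE 0.10; adjusted p = 0.00309, limma) in WT and -0.57 (adjusted p = 0.000127) in Mef2c-het.

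Dhcr7 (ILMN_2660471) encodes 7-dehydrocholesterol reductase, the last step of 1 branch of the pathway and the enzyme missing in Smith-Lemli-Opitz syndrome. WT values were 8.56, 8.57, 8.51 and 8.53 at P1 and 8.51, 8.47, 8.20 and 8.41 at P30, and Mef2c-het values were 8.42, 8.47, 8.52 and 8.58 at P1 and 8.37, 8.29, 8.48 and 8.10 at P30. The P30 arrays spread further and reached into the P1 range. The log2 change was -0.15 (95% confidence interval -0.31 to 0.02; adjusted p = 0.129, limma) in WT and -0.19 (-0.36 to -0.02; adjusted p = 0.051) in Mef2c-het. In Mef2c-het it passed when single arrays were left out, at -0.21 without Mef2c-het P1 replicate 1, -0.25 without Mef2c-het P30 replicate 6 and -0.19 without WT P30 replicate 6. Without the 5 arrays of higher background its change was -0.09 in Mef2c-het (adjusted p = 0.279, limma) and -0.06 in WT.

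**Figure D2:**
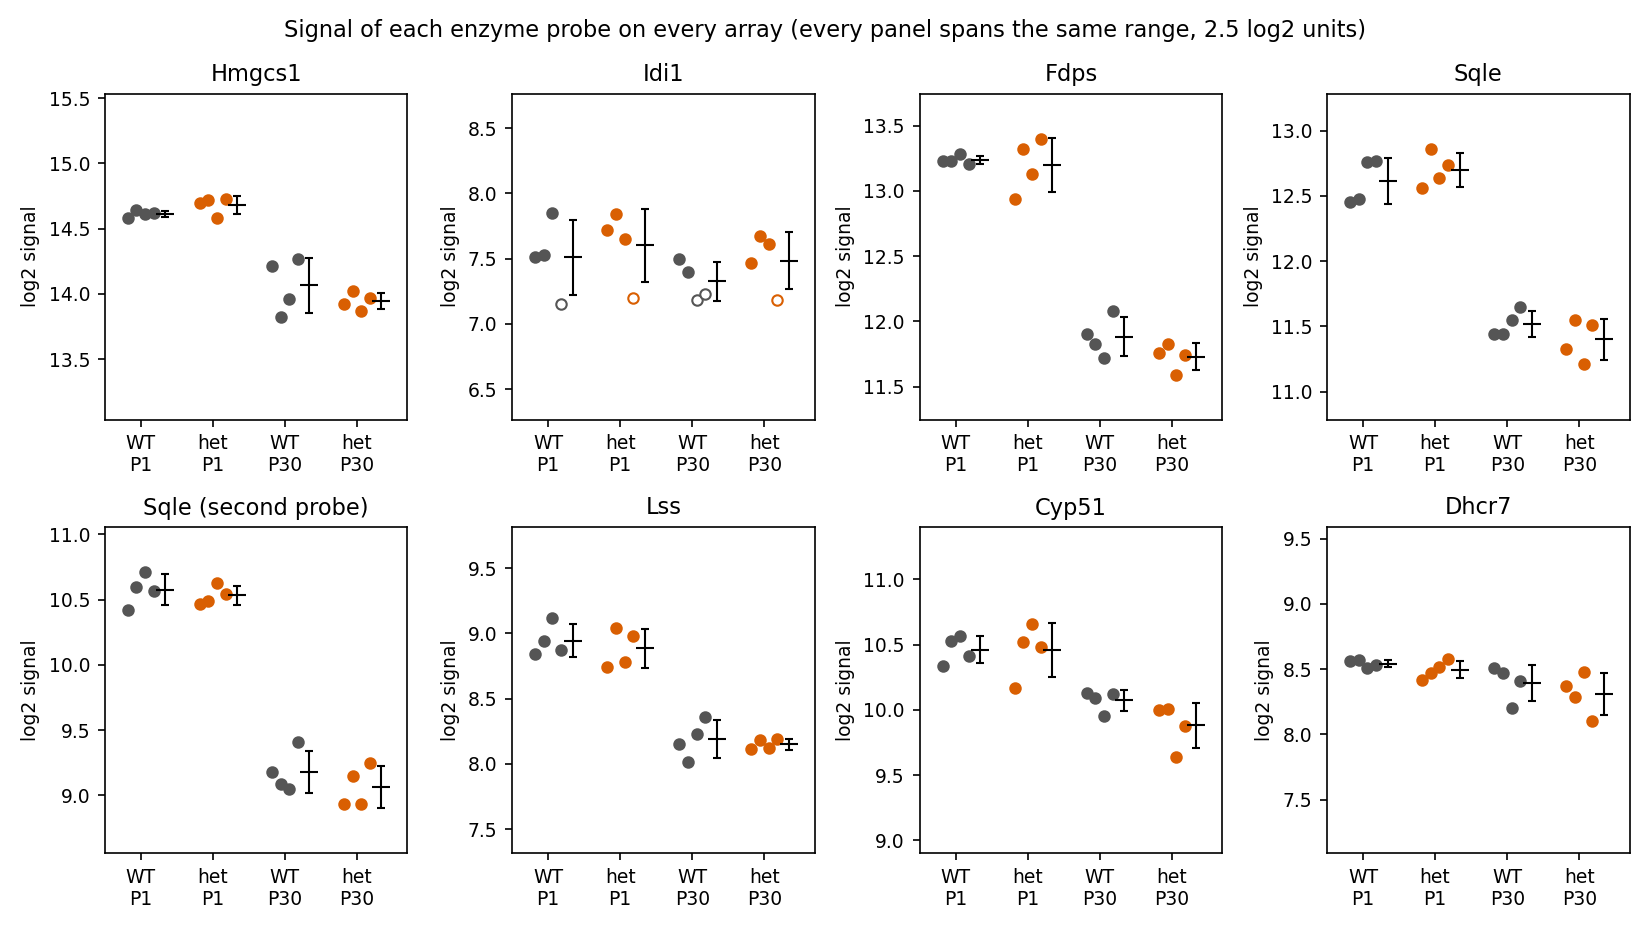
Quantile-normalized log2 signal (y axis) of the 8 enzyme probes on each of 16 arrays, by genotype and age (x axis; grey, WT; orange, Mef2c-het). Open points were not detected (detection p-value 0.05 or more), and the bars give the mean and SD of 4 arrays. Both P30 groups lie below both P1 groups without overlap for Hmgcs1, Fdps, both Sqle probes, Lss and Cyp51, and the open points of Idi1 are the lowest of its groups.

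For each of these 5 enzymes the order of the groups was thus the same in outline. Both P1 groups lay above both P30 groups, and within an age WT and Mef2c-het samples overlapped. Non-overlap of 4 arrays against 4 gives an exact permutation p of 0.0286, two-sided, the smallest this design allows, in WT and in Mef2c-het. It was not rare, since in WT 27.8% and in Mef2c-het 28.2% of all probes tested had all P30 arrays below all P1 arrays. The mean log2 signal of the 7 enzymes was 10.75 to 10.97 over the P1 arrays and 10.07 to 10.31 over the P30 arrays.

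These 5 enzymes were called in both genotypes under all alternatives run for age. Among these were sex as a covariate and the fit without the 5 arrays of higher background. Terms for array cluster or replicate number were fitted only for genotype, so the falls with age were not tested with them. Dhcr7 joined the 5 enzymes in Mef2c-het in the 3 fits without a single array given above. Age and sex were partly confounded, and at P1 both arrays of higher background were male, so sex and background were not separate checks. Any batch that separated the ages cannot be told apart from age.

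Placed along the pathway, the 7 enzymes lay among 9 other sterol synthesis enzymes with a tested probe, of 12 listed. In WT, 5 of these 9 were lower at P30 and 1 was higher, with a median log2 change of -0.30, and in Mef2c-het 5 were lower and 2 higher. Over all probes, 31.7% were called lower and 28% higher in WT, and 31.4% and 26.9% in Mef2c-het. Acat2, a cytosolic thiolase at the entry of the pathway, had the largest fall, with a log2 change of -1.88 in WT (SE 0.092; adjusted p = 3.46e-11, limma) and -1.80 in Mef2c-het. Mvd, mevalonate diphosphate decarboxylase, changed by -1.11, Nsdhl, a C4-demethylation enzyme, by -1.02, Lbr, a sterol C14-reductase that also anchors the nuclear lamina, by -0.75, and Pmvk, phosphomevalonate kinase, by -0.30 in WT, and all 4 also passed in Mef2c-het. All 4 Nsdhl probes gave the same direction, from -0.41 to -1.02 in WT.

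The other 4 enzymes of the list were not called lower in either genotype. Ebp, the sterol isomerase, rose by 0.68 in WT (SE 0.11; adjusted p = 4.71e-05, limma) and by 0.81 in Mef2c-het. Sc5d, the desaturase that makes 7-dehydrocholesterol, was called higher in Mef2c-het (0.35; adjusted p = 0.0264) and not in WT (0.25; adjusted p = 0.104), while no probe of the array was called for a difference of the age change between genotypes. Msmo1, the C4-methyl oxidase, read 0.19 (95% confidence interval -0.12 to 0.49) and Hsd17b7, a ketosteroid reductase, 0.13 (-0.11 to 0.36) in WT. In Mef2c-het Msmo1 read 0.17 (-0.14 to 0.47) and Hsd17b7 -0.19 (-0.42 to 0.04), the latter opposite in sign to WT, and neither passed.

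**Figure D3:**
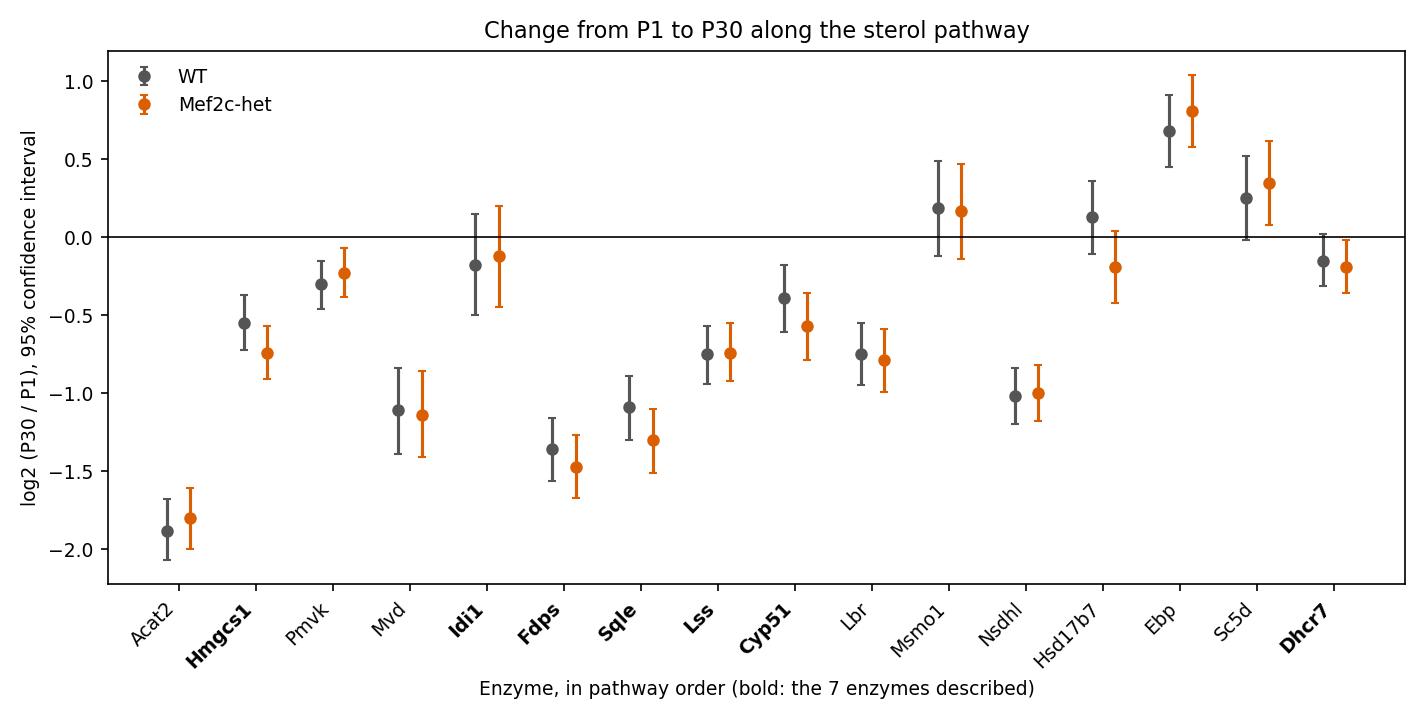
Log2 ratio of P30 to P1 signal (y axis, with 95% confidence intervals from limma) for the 7 enzymes (bold) and 9 other sterol synthesis enzymes in approximate pathway order (x axis), in WT (grey) and Mef2c-het (orange), 4 arrays a group. From Acat2 to Lbr the points lie below 0, with the interval of Idi1 reaching 0, and from Msmo1 on only Nsdhl has its interval below 0 in both genotypes.

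Of the genes that sense sterols, 8 were tested, of 9 listed. In WT at P30, 4 of the 8 were higher and none was lower, against 28% and 31.7% over all probes. Insig2, which holds SREBP precursors in the endoplasmic reticulum, rose by 1.11 (adjusted p = 2.28e-07, limma), Srebf1, the SREBP of fatty acid synthesis, by 0.49, Nr1h3, the liver X receptor alpha, by 0.46 and Nr1h2, the liver X receptor beta, by 0.29. Insig1, Scap, Mbtps1 and Mbtps2, of the same switch, did not pass, and Srebf2 was not tested. In Mef2c-het 3 were higher and none lower, against 26.9% and 31.4% over all probes. There Nr1h2 did not pass on its counted probe (0.19; adjusted p = 0.0657, limma). Its other tested probe passed in Mef2c-het (0.30; adjusted p = 0.0214) and not in WT (0.17; adjusted p = 0.172). Srebf1 and Nr1h3 were dim, with means of 7.32 and 7.40 in WT at P1. With background correction 1 gene of this list was called lower in each genotype.

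Of 7 tested genes of cholesterol uptake, transport and turnover, of 12 listed, 3 rose and 1 fell in WT. Over all probes 28% were called higher and 31.7% lower. Apoe, the main lipid carrier between brain cells, rose by 1.50 (adjusted p = 8.47e-08, limma), Abcg1, a cholesterol exporter, by 1.39, and Cyp46a1, which hydroxylates cholesterol for export from neurons, by 1.14. Npc2, a lysosomal cholesterol carrier, fell by 1.31 (adjusted p = 0.00774). In Mef2c-het Stard4, a sterol transfer protein, was also called lower, at -0.34. Of 10 fatty acid synthesis genes, 3 were higher and 4 lower in WT, near the 28% and 31.7% over all probes. Scd1, a stearoyl-CoA desaturase, rose by 1.74 (adjusted p = 2.1e-09), and Acaca, acetyl-CoA carboxylase, fell by 1.12 (adjusted p = 3.82e-09).

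Markers of cell types moved with age at the same time. For comparison, 28% of all probes were called higher and 31.7% lower in WT, and 26.9% and 31.4% in Mef2c-het. Of the oligodendrocyte and myelin genes, 10 of 10 were higher at P30 in WT, from 3.82 to 7.03 on the log2 scale, and their summed signal went from 2331 to 2825 intensity units at P1 to 98532 to 110927 at P30 in WT, and from 2452 to 3509 to 94295 to 109683 in Mef2c-het. The largest of these rises was that of Mbp, myelin basic protein, and its 3 probes ranged from 1.58 to 7.03. The summed signal of the 7 enzymes, most of it from Hmgcs1, was 42044 to 44529 in WT at P1 and 22764 to 29243 at P30, and 42529 to 47385 and 22034 to 25124 in Mef2c-het.

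Proliferating cell markers fell with the enzymes. In WT 8 of 8 tested, of 12 listed, were lower at P30, with a median log2 change of -1.87, and Cdk1, the mitotic kinase, had the largest fall at -2.48. Their summed signal was 4316 to 5265 in WT and 4420 to 5218 in Mef2c-het at P1, and 1338 to 1427 and 1349 to 1461 at P30. In Mef2c-het 7 of 8 were lower. Neuron markers rose in 6 of 6 tested, of 8 listed (summed signal 12344 to 16261 in WT at P1 and 59850 to 63548 at P30), with Camk2a, a kinase of excitatory synapses, the largest at 3.93. Astrocyte markers rose in 7 of 8 (27816 to 31551 in WT at P1 and 51724 to 55520 at P30), led by Slc1a2, a glutamate transporter, at 3.08, and microglia markers in 7 of 9 in WT and 9 of 9 in Mef2c-het (3616 to 4377 in WT at P1 and 5322 to 7263 at P30), led in WT by Csf1r, a growth factor receptor, at 1.13. The 3 tested Slc1a2 probes ranged from 0.14 to 3.08 in WT, and the lowest did not pass (adjusted p = 0.357, limma). Background was not fully subtracted (lowest intensity 92.8), so no marker could read 0, and a low reading does not show that a cell type was present. The part of these cell types in the fall of the enzymes was not tested.

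Tissue from outside the hippocampus varied between samples. The summed signal of 4 choroid plexus markers was 6257 to 31403 in WT at P1 and 1163 to 22103 at P30, and 1994 to 25503 and 1867 to 4492 in Mef2c-het, and of these 4 only Kl, the ageing-suppressor klotho, was called higher at P30, by 1.31 in WT. Of 3 blood genes 2 were lower at P30 in WT and none in Mef2c-het. Over all probes 28% were called higher and 31.7% lower in WT, and 31.4% lower in Mef2c-het. Hba-a1, an alpha globin, had the larger of the called falls in WT, at -0.36. Hbb-b1, a beta globin, read -0.86 in WT and did not pass (adjusted p = 0.09, limma). The part of choroid plexus and blood in the result was not tested.

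**Figure D4:**
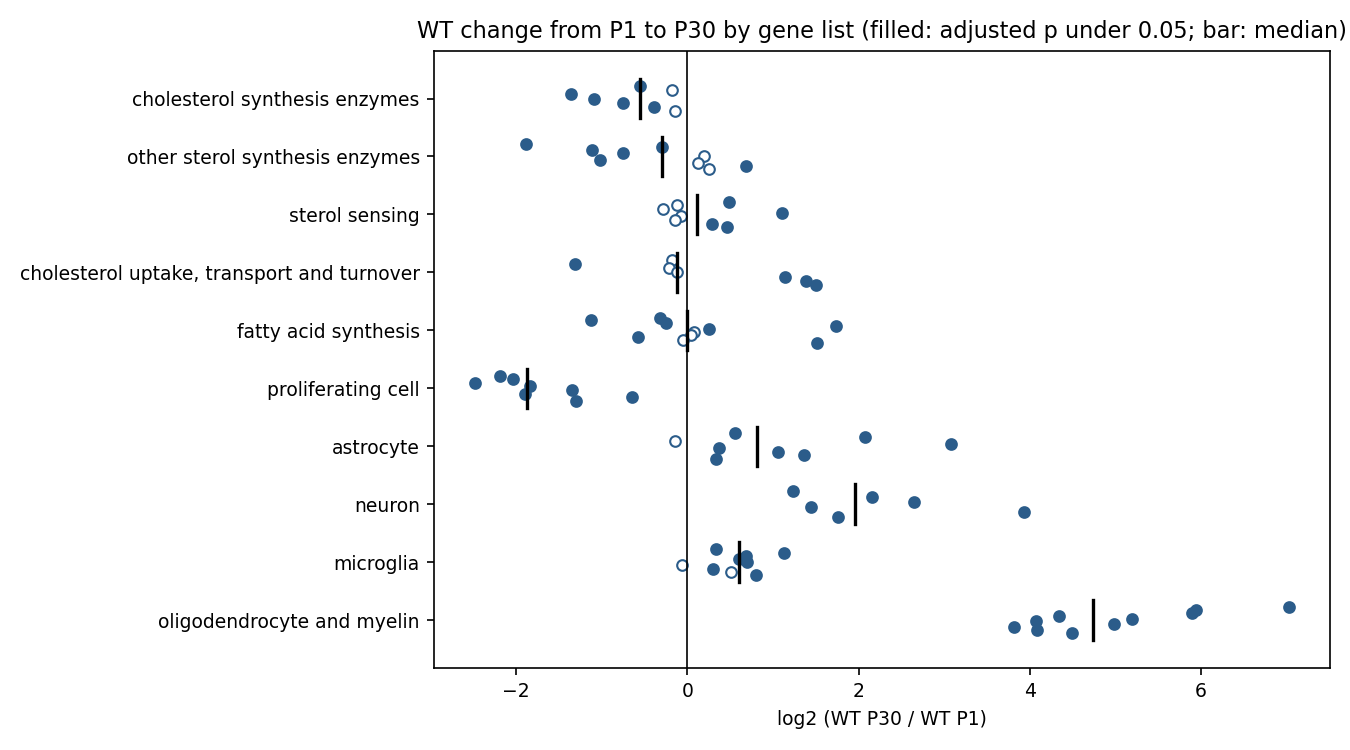
Log2 ratio of P30 to P1 signal in WT (x axis) for every tested gene of 10 lists (rows), 1 point per gene on its brightest tested probe. Filled points passed limma at an adjusted p under 0.05, and black bars are list medians. The cholesterol synthesis enzymes (median -0.55) and proliferating cell markers (median -1.87) lie on the lower side, and the myelin genes, 3.82 and above, farthest on the higher side.

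The second question was whether losing 1 copy of Mef2c changed the enzymes. At P30, 0 of the 7 passed limma at an adjusted p under 0.05, and 0 had an unadjusted p under 0.05. Over all probes 0.00677% were called, which is 1 of 14777, and 420 had an unadjusted p under 0.05. Of the enzymes, 6 read lower in Mef2c-het and 1 higher, with a median log2 difference of -0.12 against -0.01 over all probes, and the groups overlapped for all 7. Cyp51 read -0.19 (95% confidence interval -0.40 to 0.03; exact permutation p = 0.0857, two-sided), and -0.11 without Mef2c-het replicate 6. Fdps read -0.15 (-0.35 to 0.05), Hmgcs1 -0.12 (-0.30 to 0.05), Sqle -0.12 (-0.33 to 0.08), Dhcr7 -0.09 (-0.26 to 0.08), Lss -0.04 (-0.22 to 0.14) and Idi1 0.15 (-0.17 to 0.48), which was 0.47 after background correction. These intervals still allow a log2 difference of -0.40 for Cyp51, as large as its own change with age in WT (-0.39). For Dhcr7 they allow -0.26, beyond its age change of -0.15, which did not pass. Intervals of Fdps, Sqle, Lss and Hmgcs1 did not reach the WT age changes of the same genes (-1.36, -1.09, -0.75 and -0.55). None of the 7 was called at P30 in any alternative fit. The lowest unadjusted p-values of those fits (limma) were 0.0133 for Hmgcs1, 0.0314 for Sqle on its counted probe, 0.0322 for Cyp51 and 0.0382 for Dhcr7. For Fdps, Lss and Idi1 they stayed above 0.05.

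At P1, 0 of the 7 passed and 0 had an unadjusted p under 0.05 (limma), with 0.0135% of all probes called, which is 2, and 337 at an unadjusted p under 0.05. The median difference was -0.01, from -0.06 for Lss (95% confidence interval -0.24 to 0.13) to 0.10 for Idi1 (-0.23 to 0.42). The remaining enzymes read 0.09 for Sqle (-0.12 to 0.29), 0.07 for Hmgcs1 (-0.10 to 0.25), -0.04 for Fdps (-0.24 to 0.16), -0.04 for Dhcr7 (-0.21 to 0.12) and -0.01 for Cyp51 (-0.22 to 0.21). The 2 Sqle probes disagreed in sign at P1, at 0.09 and -0.04, and both intervals held 0. None of the genes of the pathway and marker lists was called by genotype at either age. Without Mef2c-het P30 replicate 7, whose Mef2c signal lay near the top of or above the WT range, 0 of the 7 enzymes passed at P30 as well, while over all probes 1 was called and the number at an unadjusted p under 0.05 went from 420 to 1229 (limma). Leaving out any other single array gave 229 to 661 at P30. Replicate 7 was the only Mef2c-het array of higher background at P30, beside WT replicates 6 and 7. Without it genotype and array background were partly confounded, and their shares in this number cannot be told apart.

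**Figure D5:**
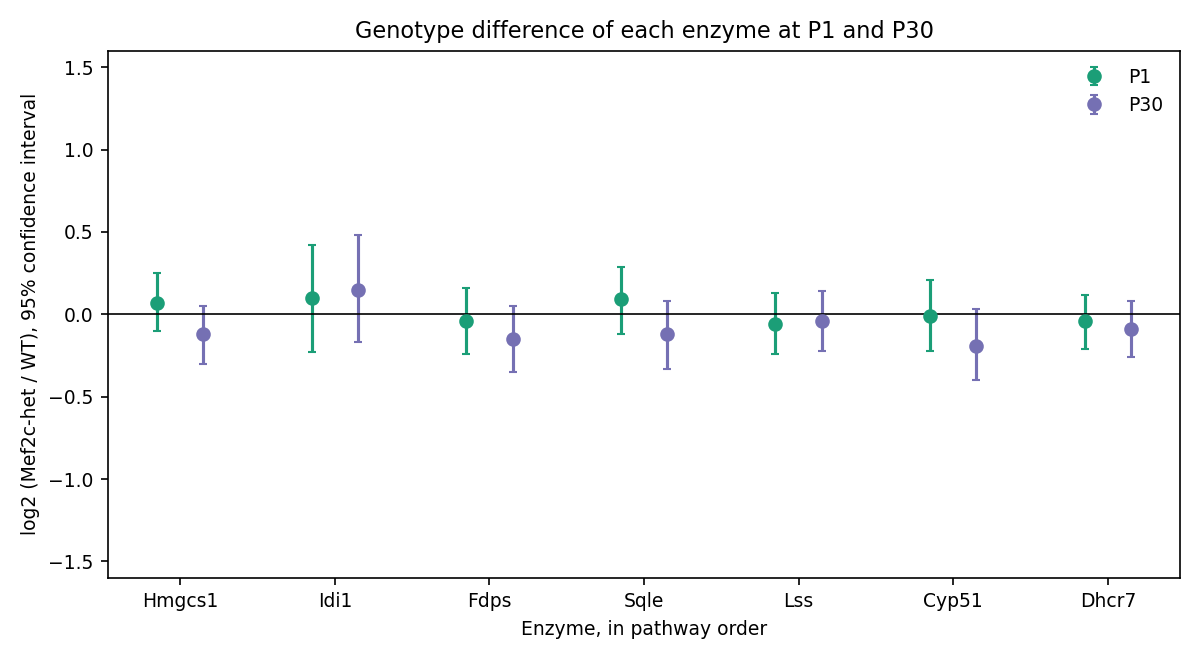
Log2 ratio of Mef2c-het to WT signal (y axis, with 95% confidence intervals from limma) of the 7 enzymes in pathway order (x axis) at P1 (green) and P30 (purple), 4 arrays a group. Every interval holds 0, and at P30 all but Idi1 read below 0.

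The third comparison, the genotype difference at P30 minus that at P1, asked whether the fall with age differed between the genotypes. It was called for 0 of the 7 enzymes by limma, with 0 at an unadjusted p under 0.05, and for 0% of all probes, of which 438 had an unadjusted p under 0.05. The values ran from -0.21 for Sqle (95% confidence interval -0.50 to 0.08) and -0.19 for Hmgcs1 (-0.44 to 0.05) to 0.06 for Idi1 (-0.40 to 0.51), so the somewhat larger falls of Sqle and Hmgcs1 in Mef2c-het were within error. Over the alternative fits, in which none was called, the lowest unadjusted p-values (limma) were 0.0147 for Hmgcs1, 0.0318 for Sqle and 0.0429 for Cyp51. For the other enzymes they stayed above 0.05.

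Finally, the enzymes were compared with one another. Over all 16 arrays the 21 pairs had Pearson's r from 0.27 to 0.98 (median 0.67), as points that share the age groups. Fdps, Sqle, Lss and Hmgcs1 moved most closely, at 0.95 to 0.98, and Idi1 least, at 0.27 to 0.30. After the mean of each group was removed, r ran from -0.46, for Sqle and Dhcr7, to 0.69, for Sqle and Lss, with a median of 0.20 and 16 of 21 above 0. Points on an array share its RNA and its background, and the values are given as a description.

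The genes outside the member list whose signal followed the mean standardized profile of the 7 enzymes most closely over the 16 arrays were Arpp19, a mitotic phosphatase inhibitor (r = 0.982), Acaca (0.977), Zfp282 (0.976), Rala, a small GTPase (0.976), and Septin2 (0.975), with log2 changes with age from -0.67 to -1.30 in WT. After group means were removed they were Eml1 (0.827), Pip4k2c (0.820), Akt1 (0.803), Kazn (0.797) and Stk32b (0.790), over 16 deviations. Among the other sterol enzymes, Acat2 (0.736) and Hsd17b7 (0.652) had the highest values on that measure.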

How the data were processed

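Total RNA from 16 hippocampal samples had been hybridized to Illumina beadchips (MouseRef-8 v2), 1 sample per array. The table deposited by the authors gives 25697 probes, each with its linear mean bead intensity before any normalization. The authors also deposited the detection p-value of each probe, a comparison with negative controls, together with its bead-level standard error and the count of its beads. The lowest intensity was 92.8, so background had not been fully subtracted. The authors then log2 transformed and quantile normalized their data; their processing notes name lumi and limma. Of the probes, 25376 were named through RefSeq (GRCm38.p6). On each array 12638 to 14150 probes were detected, the median probe had 36 to 39 beads, and the number of arrays limits the precision.

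Here intensities were log2 transformed, quantile normalized over 16 arrays and filtered to probes with a detection p-value under 0.05 on at least 4 (14777 probes). All 4 groups entered 1 limma fit (lmFit, eBayes; limma 3.58.1, R 4.3.3), with two-sided tests and Benjamini-Hochberg adjustment over all tested probes, called at 0.05. A gene was counted by its tested probe of highest mean signal. Single probes were also compared by exact permutation. No column of samples was left unused. A further gene of the wider pathway, beside those named, is not reported here.

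The enzymes, the gene lists and the clusters of arrays were chosen with earlier results of these data known. Named were the enzymes with every probe, from each other list the largest rise and fall with age in WT among called genes, any gene called by genotype, and the 5 genes most like the enzymes' mean profile on each measure. The other sterol, sensing and transport genes named, and Hsd17b7 for its likeness, were added after their values were seen. Alternatives were normexp background correction (offset 16), median scaling, cyclic loess, no filter, a detection p-value under 0.01, trend and robust variances, only the 8 arrays compared, every probe of an enzyme, sex, array cluster or replicate number as a term, each array left out in turn and, added after seeing the data, the 5 arrays of higher background left out. Array cluster and replicate number were terms only for the genotype differences and their difference between the ages.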

Additional observations from a re-analysis of the deposited data

How the results depend on the processing

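The counts of enzymes called, 5 lower with age in each genotype and 0 by genotype or for the difference of the ages, were unchanged under all alternatives run for each comparison, except that counting every probe adds the other Sqle probe (6 probes), and Dhcr7 in Mef2c-het passed without 1 of 3 single arrays. Of the lists, other sterol enzymes called higher in Mef2c-het went from 2 to 1 with median scaling, sterol sensing genes called lower went from 0 to 1 with background correction in both genotypes, and transport genes called lower in Mef2c-het went from 2 to 1 without the 5 arrays of higher background. The cause was not tested.

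Sign turned only in differences that passed no test. With sex as a covariate Idi1 read 0.05 in WT and 0.03 in Mef2c-het for age, and -0.02 for the difference of the genotype effects, as with array cluster as a block (-0.02). Cyp51 at P1 by genotype read 0.00 with median scaling, cyclic loess and the replicate block. Dhcr7 read 0.00 for the difference with median scaling, and Lss by genotype at P30 0.06 without the 5 arrays of higher background. Leaving out single arrays gave -0.10 to 0.02 for Lss by genotype at P30. At P1 it gave -0.02 to 0.23 for Idi1, -0.11 to 0.05 for Fdps, -0.09 to 0.00 for the other Sqle probe, -0.11 to 0.00 for Lss and -0.08 to 0.09 for Cyp51. For the difference of the genotype effects it gave -0.08 to 0.18 for Idi1, -0.04 to 0.08 for Lss and -0.11 to 0.03 for Dhcr7.

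The sample names share replicate numbers 1, 4 and 8 at P1 and 3, 6 and 7 at P30. Deviations of same-numbered samples from their group means correlated at 0.091, 0.397 and 0.82 at P1 and 0.17, -0.522 and 0.697 at P30, so the numbers were not shown to pair the samples. With the replicate block 0 of the 7 enzymes were called at either age, the other Sqle probe read 0.02 at P1 and Lss -0.02 for the difference of the genotype effects. No probe was called at either age, with 1102 at P30 and 606 at P1 at an unadjusted p under 0.05.

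Signal over background limits Idi1, not detected on 5 of 16 arrays, and the size of the change of Lss, which was -0.75 as reported and -1.13 with background correction in WT.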
